A study of Homo sapiens with 6 samples.

Results

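The genes described here are the named long noncoding RNAs (lncRNAs) that were well detected in SU-DHL-4 cells, a human cell line from a diffuse large B-cell lymphoma. An entry was taken when every transcript type listed for it was lncRNA, when its name was more than a clone, locus or Ensembl identifier, and when its mean over 4 libraries was at least 2 FPKM (fragments per kilobase of transcript, scaled to the size of the library). Host genes of the SNHG and MIR families, GAS5 and ZFAS1 were left out by name. This gave 197 of 29489 genes, out of 2422 named lncRNA genes at any level and 7385 genes of lncRNA type. The entries were thus chosen by their type, their name and a mean level over both groups. That level is a description. The rule uses no difference between groups, but the set was proposed with earlier results of these data known. By their names, 75 were antisense to a gene (names with -AS), 38 were long intergenic (names beginning with LINC) and 84 had other names. The last class held 28 divergent transcripts (names ending in -DT), 33 genes described as pseudogenes in the gene descriptions of the file, and 23 others such as NEAT1, MALAT1 and NORAD. ASMTL-AS1 and LINC03112 are listed under 2 identifiers each, and both entries were kept.

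The series has 6 samples of this line, 3 labelled CON and 3 labelled KD, from poly(A) RNA. It is concerned with the transcription factor ZHX2, ferroptosis and SLC3A2, but the labels name no gene, reagent or time for KD and give no treatment for either group. In both groups the replicate 1 column is no separate measurement. For CON it was the average of replicates 2 and 3 over 1.1 in 29488 genes, ZHX2 being the exception, and for KD the average over 1.2 in 29489 (relative tolerance 1e-09). All comparisons therefore rest on replicates 2 and 3 of each group, so n = 2. The labels do not tell whether these libraries come from different cultures, and the p-values cover the spread between them alone, which may be technical. The sum of FPKM over genes was 267854 and 267622 for CON, against 272992 and 273768 for KD, and sequencing depth is unknown. ZHX2 stood at 38.5 and 36.7 in the CON libraries, against 10.96 and 11.04 FPKM in KD, and SLC3A2 at 74.9 and 75.5 against 26.6 and 27.4 FPKM. Markers of B cells were present: all 9 passed the filter on low values, with summed levels of 835 and 846 FPKM in CON and 638 and 649 FPKM in KD. Of 9 T and NK cell markers 5 are in the table, with sums of 1.34 and 1.84 FPKM in CON and 1.06 and 0.945 FPKM in KD. Of 7 myeloid markers 5 are in the table and 0 were tested; their sums were 0.0502 and 0.0542 FPKM in CON, against 0.523 and 0.498 FPKM in KD. Of 8 epithelial and fibroblast markers 4 are in the table, with sums of 4.56 and 5.04 FPKM in CON and 4.53 and 4.44 FPKM in KD. Of these 2 were tested: DCN fell from 3.44 to 1.88 FPKM and LUM rose from 1.35 to 2.38 FPKM. What part these markers have in the results was not tested.

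LncRNAs are RNA polymerase II transcripts without a long open reading frame, and many are spliced and polyadenylated like messenger RNA. Divergent transcripts start beside a coding gene's promoter and run the other way, antisense transcripts lie on the strand opposite to a gene, and long intergenic ones stand apart from coding genes. Many are kept at low levels by the nuclear exosome and its adaptors, which degrade short promoter-derived RNA. A few have known roles, NEAT1 as the scaffold of nuclear paraspeckles, MALAT1 in nuclear speckles, and NORAD as a cytoplasmic decoy of RNA-binding proteins. MALAT1 and the long NEAT1 isoform end without an added poly(A) tail, so a poly(A) selected library measures them only in part.

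Named lncRNAs were mostly lower in KD. Of the 197, 113 fell, 27 rose and 57 were not called (limma on log2(FPKM + 1), adjusted p under 0.05 over all tested genes), and 146 had an unadjusted p under 0.05. Falls were called for 57.4% of these lncRNAs against 31.1% of all 11916 tested genes, and rises for 13.7% against 27.6%; calls in either direction made up 58.6% of all tested genes. The median log2 change was -0.40 over the named lncRNAs and -0.02 over all tested genes. Their summed level was 1199 and 1213 FPKM in CON and 1014 and 1022 FPKM in KD. In bulk RNA a smaller share of cells with a transcript and less of it per cell cannot be told apart. Groups did not overlap in 169 of the 197 (85.8%), against 81.6% of all tested genes, and in 65.0% they were apart with KD lower, against 42.9%. With the ratio of mean FPKM, 44 fell at least 2-fold, which is 22.3% against a background of 5.67%, and 8 rose at least 2-fold, which is 4.06% against 5.04%. Those that fell had a median CON/KD ratio of 1.75 and those that rose a median KD/CON ratio of 1.52.

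**Figure D1:**
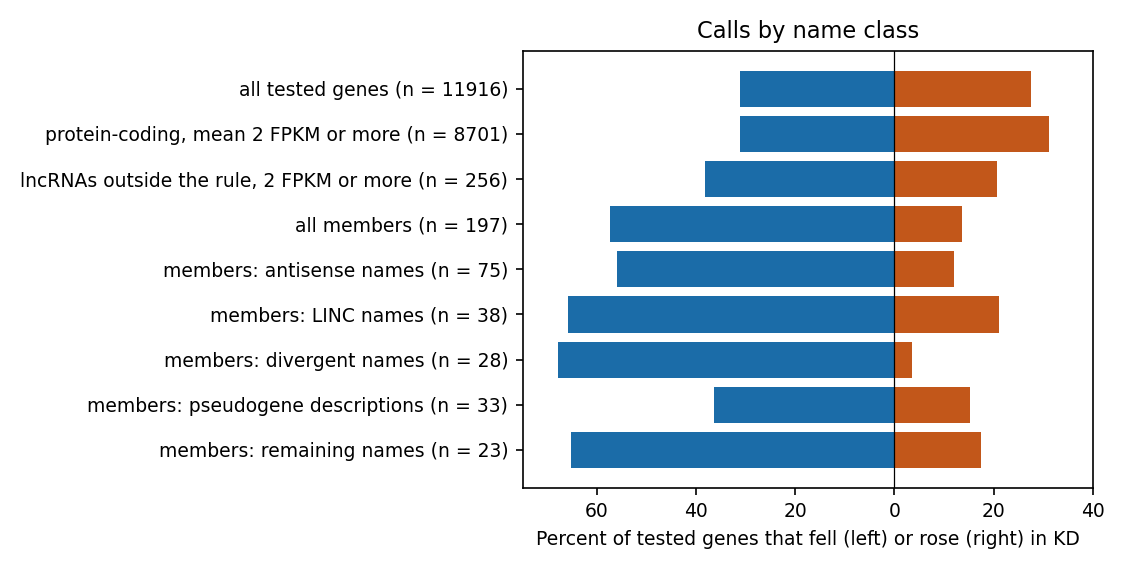
Percent of tested genes that fell (bars to the left) or rose (bars to the right) in KD, for all genes, for reference classes and for the named lncRNAs by type of name. Falls reached 57.4% of the named lncRNAs and 31.1% of all tested genes; the class of pseudogene names had 36.4%.

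The level of these transcripts was low. Their median was 3.48 FPKM, 139 lay under 5 FPKM and 25 at 10 FPKM or more. Within groups their values varied more than those of coding genes, with a median coefficient of variation of 8.32% against 3.87% for protein-coding genes of at least 2 FPKM. All 197 passed the filter of 1 FPKM in at least 2 of the 4 libraries, and 192 were at 1 FPKM or more in every library. LINC02986 and C1orf220 passed it through a single group, so that they had to differ. The share that fell did not track the level closely. Between 2 and 3 FPKM 57.3% of the named lncRNAs fell, between 3 and 5 FPKM 60.9%, between 5 and 10 FPKM 54.5%, and at 10 FPKM or more 52.0%. For protein-coding genes in the same ranges the shares were 20.7%, 23.8%, 26.0% and 38.9%. Across the 197 genes, log2 change and log2 level had a Pearson r of 0.205 and a Spearman rho of 0.187, where the points share the same libraries and both values come from the same FPKM. Falls of at least 2-fold were concentrated at the bottom of this scale: 34.7% of those between 2 and 3 FPKM, 23.4% between 3 and 5 FPKM and 0 of 33 between 5 and 10 FPKM. At 10 FPKM or more 12.0% did so, that is 3 of 25: PDCD4-AS1, LINC01754 and PAXIP1-DT. For protein-coding genes in the same ranges, from low to high, 3.93%, 3.24%, 1.25% and 1.36% fell at least 2-fold. Such falls were thus more frequent at low levels in coding genes too.

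**Figure D2:**
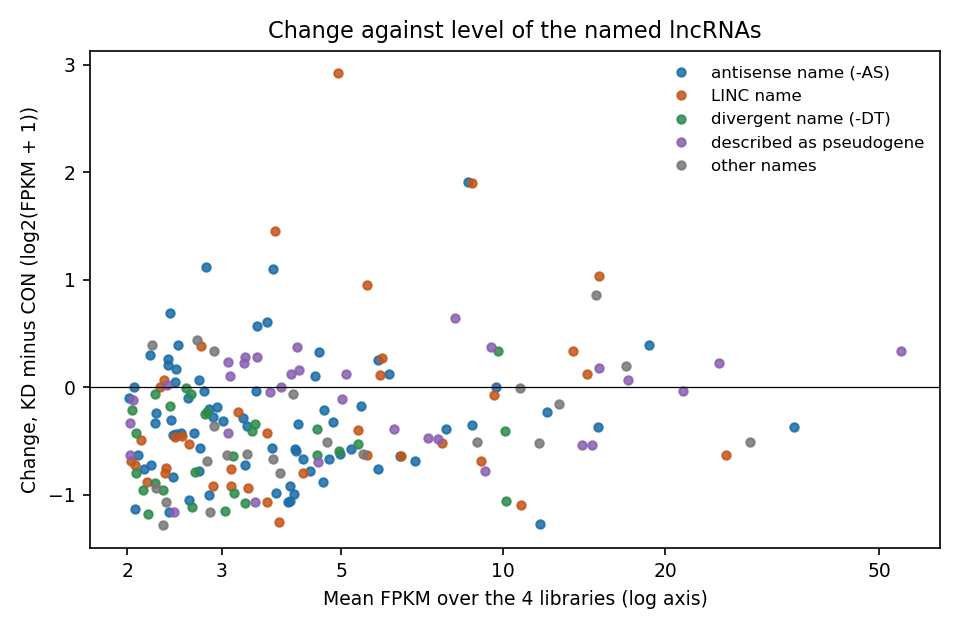
Change between groups, KD minus CON on the log2(FPKM + 1) scale, against the mean FPKM of each named lncRNA over 4 libraries (log axis), with colour for the type of name. Most points lie below 0, and the 4 highest rises are at means under 10 FPKM.

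Nearby sets of transcripts gave the following background. Among 256 lncRNA genes of at least 2 FPKM whose names the rule leaves out, 38.3% fell and 20.7% rose, with a median of -0.17. Among all 1090 tested genes of lncRNA type 43.8% fell and 15.8% rose, with a median of -0.30. Among 8701 protein-coding genes of at least 2 FPKM the shares were 31.2% and 31.1%, with a median of -0.001. Named lncRNAs tested below the 2 FPKM threshold numbered 264, of which 143 fell and 24 rose with a median of -0.39. Genes at so low a level can pass the filter through a single group, as LINC02924 and COA6-AS1 did, and then have to differ. These counts are therefore a description and no independent background, and the set of all tested lncRNA genes includes such genes too. At the threshold itself, PINK1-AS (mean 2.02 FPKM, not called) and ZNF271P (2.02 FPKM, fell) were just inside, and DTX2P1-UPK3BP1-PMS2P11 (1.98 FPKM) and ACAP2-IT1 (1.999 FPKM) were just outside and not called.

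The types of name differed in their counts, a difference that was not tested. LINC genes had the highest share of calls of the 3 types, with 25 of 38 lower (65.8%) and 8 higher (21.1%) and a median log2 change of -0.50. Of 75 antisense genes 42 fell (56.0%) and 9 rose (12.0%), with a median of -0.35. Of the 84 other names 46 fell (54.8%) and 10 rose (11.9%), with a median of -0.40, and that class was mixed. Divergent transcripts fell in 19 of 28 (67.9%) and rose in 1 (3.57%), and their median was -0.56. Pseudogene names fell in 12 of 33 (36.4%) and rose in 5 (15.2%), with a median of 0.01. The 23 remaining names fell in 15 (65.2%) and rose in 4 (17.4%), with a median of -0.51. Exon number, from GENCODE release 29, was known for 163 of the 197. Of 24 with a single exon 19 fell (79.2%), with a median of -0.77, against 78 of 139 with more exons (56.1%), with a median of -0.36.

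**Figure D3:**
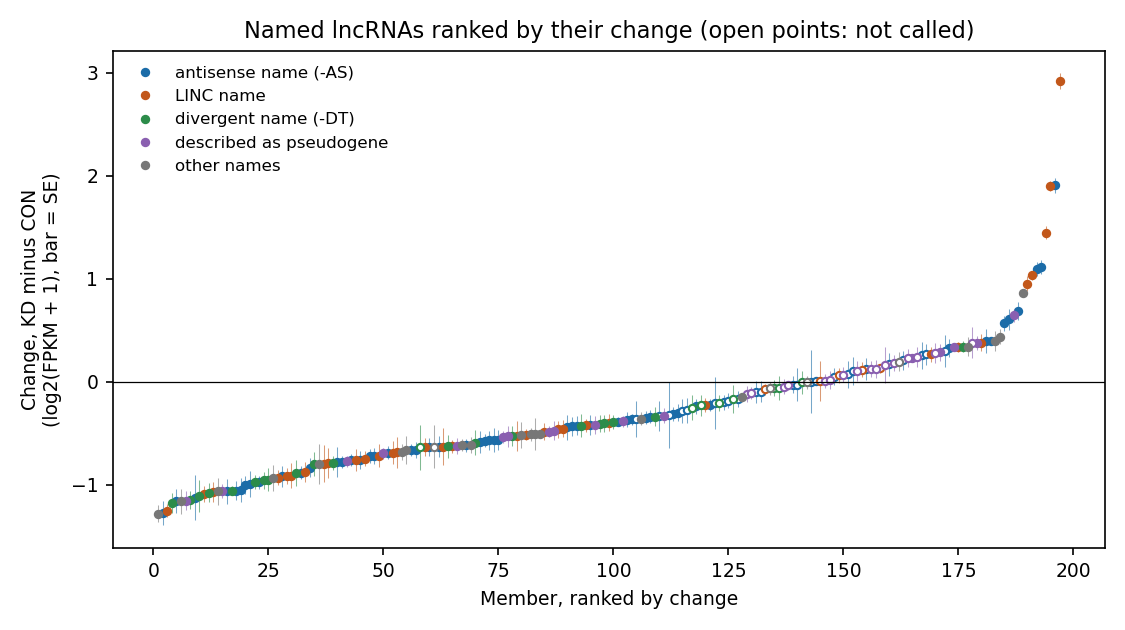
The 197 named lncRNAs in order of their change between groups, KD minus CON on the log2(FPKM + 1) scale; bars are the SE of the limma fit, open points were not called, and colours give the type of name. Falls form a long slope down to -1.28, whereas a few genes at the right end rise by more than 1, up to 2.92.

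Of the 38 LINC genes 8 rose, and they included the largest rise of all. At least 2-fold, 5 rose (13.2%, against 5.04% of all tested genes) and 12 fell (31.6%, against 5.67%). LINC02986, a single-exon gene on chromosome 8 (80541300 to 80543104, plus strand; GRCh38, as for all positions here), was at 0.374 and 0.395 in the CON libraries, against 9.90 and 9.04 FPKM in KD. The means differed 24.6-fold, with a log2 change of 2.92 (SE 0.0766, limma adjusted p = 4.72e-05). LINC02986 passed the filter on low values through KD alone, so its groups had to be apart, and neither that nor the p-value is support. Its nearest tested coding gene is ZBTB10, a zinc finger repressor that ends 15035 bases upstream on the same strand, and that gene rose from 4.95 ± 0.152 to 20.7 ± 0.371 FPKM (SD, n = 2). LINC00910 (chromosome 17, 43369845 to 43389199, minus strand) was at 3.12 and 3.13 in the CON libraries, against 14.8 and 14.0 FPKM in KD. That is 4.61-fold higher, with no overlap of groups (log2 change 1.90, SE 0.0523, limma adjusted p = 5.37e-05). LINC02909 (chromosome 12, 24993424 to 25006403, minus strand) was at 1.55 and 1.56 in the CON libraries, against 6.18 and 5.77 FPKM in KD, a 3.85-fold rise (log2 change 1.45, SE 0.0680, limma adjusted p = 0.000209). It overlaps on the opposite strand IRAG2, an endoplasmic reticulum membrane protein gene of lymphoid cells, which rose as well, from 63.3 ± 0.496 to 162 ± 1.28 FPKM (SD, n = 2), with the same uncertainty as other overlapping pairs. LINC01004 was at 3.54 and 3.44 in the CON libraries, against 8.13 and 7.25 FPKM in KD, again with every KD value above every CON value (log2 change 0.95, limma adjusted p = 0.000629).

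The abundant LINC genes did not move together. LINC03034, the most abundant of the class, was at 32.9 and 30.4 in the CON libraries, against 20.9 and 19.3 FPKM in KD, a fall without overlap (log2 change -0.63, SE 0.0586, limma adjusted p = 0.00118). The nearest coding gene, KLF13, a zinc finger transcription factor on the other strand, went from 25.1 to 15.5 FPKM. LINC02137 was at 13.8 and 13.5 in the CON libraries, against 14.5 and 15.5 FPKM in KD and was not called (limma adjusted p = 0.0692). It was called in 3 of 14 alternatives, with a log2 change of 0.15 under median-ratio scaling, 0.18 when rescaled without mitochondrial genes and 0.17 without KD replicate 2. NDRG4, which begins 376 bases beyond its end, went from 4.12 to 8.96 FPKM. LINC01089 had the largest fall of the class, from 5.69 and 5.91 FPKM in CON to 1.88 and 1.83 FPKM in KD. This is 3.13-fold lower and the groups were well apart (log2 change -1.25, SE 0.0634, limma adjusted p = 0.000246).

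Of 12 lncRNAs listed as lymphoid, 6 were tested and 3 are among the 197. LINC00926, a transcript of B lymphocytes, was at 9.65 and 9.44 in the CON libraries, against 21.2 and 19.97 FPKM in KD. It was thus 2.16-fold higher in KD with no overlap (log2 change 1.03, SE 0.0463, limma adjusted p = 0.000191), whereas TCF12, the transcription factor gene that ends 1084 bases before it on the same strand, fell slightly from 28.9 to 26.2 FPKM. LINC00487 went the other way, from 9.19 and 9.28 FPKM to 6.39 and 5.94 FPKM (log2 change -0.51, limma adjusted p = 0.00166). LINC01857 was at 5.97 and 5.26 in the CON libraries, against 6.16 and 6.17 FPKM in KD and was not called (limma adjusted p = 0.208). The other 3 tested, whose transcript types put them outside the rule or whose level is under 2 FPKM, were PCED1B-AS1 (11.5 to 4.85 FPKM, fell), CD27-AS1 (3.97 to 5.02 FPKM, rose) and DLEU2 (1.22 to 0.996 FPKM, not called). In these libraries 4 of the 9 B cell markers fell, 2 rose and 3 were not called, with a median log2 change of -0.20. Of all tested genes 31.1% fell and 27.6% rose. As an example of each direction, the B cell receptor chain gene CD79A went from 375 to 203 FPKM and the B cell surface gene MS4A1 from 86.4 to 120.2 FPKM. What part B cell markers have in these results was not tested.

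Antisense genes with large rises differed in what their sense gene did. LRRTM4-AS1 (chromosome 2, 76985965 to 77009791, plus strand) lies within LRRTM4, which encodes a leucine-rich repeat membrane protein known from synapses. It was at 2.87 and 3.21 in the CON libraries, against 14.8 and 13.5 FPKM in KD, 4.66-fold higher and without overlap (log2 change 1.91, SE 0.0729, limma adjusted p = 0.000132). LRRTM4 itself fell, from 18.6 ± 0.517 to 9.05 ± 0.205 FPKM (SD, n = 2), a log2 change of -0.96 (limma adjusted p = 0.000199). ATP1B3-AS1, opposite to the gene of a sodium pump subunit, was at 1.43 and 1.38 in the CON libraries, against 4.23 and 4.18 FPKM in KD (log2 change 1.11, limma adjusted p = 0.000412). Its sense gene ATP1B3 differed far less, from 70.8 to 77.2 FPKM. THUMPD3-AS1 was at 1.96 and 2.08 in the CON libraries, against 5.24 and 5.67 FPKM in KD (log2 change 1.10, limma adjusted p = 0.000443), and THUMPD3, a transfer RNA methyltransferase gene, also rose, from 5.68 to 8.69 FPKM. Exons of THUMPD3-AS1 and THUMPD3 overlap by 660 bases. Because the sources used here do not state the strand setting behind the FPKM, values of such overlapping pairs are uncertain; LRRTM4-AS1 and ATP1B3-AS1 share no exonic bases with their sense genes.

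Of the 75 antisense genes 15 fell at least 2-fold and 3 rose by that much, against 5.67% and 5.04% of all tested genes; the share that rose (4.0%) is near that background. PDCD4-AS1 (chromosome 10, 110869868 to 110872233, minus strand) starts 438 bases inside PDCD4, whose product restrains translation initiation. It was at 16.9 and 17.0 in the CON libraries, against 7.37 and 5.56 FPKM in KD, 2.62-fold lower with no overlap, the KD libraries differing more from each other than the CON libraries (log2 change -1.27, SE 0.1199, limma adjusted p = 0.00121). PDCD4 was at 24.4 and 24.6 in the CON libraries, against 25.2 and 26.1 FPKM in KD and was not called (limma adjusted p = 0.170). LPP-AS2 was at 3.45 and 3.92 in the CON libraries, against 0.925 and 1.27 FPKM in KD (log2 change -1.16, limma adjusted p = 0.00144), and LPP, a gene for a focal adhesion protein, fell with it, from 3.06 to 1.92 FPKM. GABPB1-AS1, which others have studied in ferroptosis of liver cancer cells, was the single tested gene of 9 listed for ferroptosis and stress. It was at 6.08 and 6.02 in the CON libraries, against 3.35 and 3.55 FPKM in KD, 1.75-fold lower without overlap (log2 change -0.66, SE 0.0583, limma adjusted p = 0.000998). GABPB1, a subunit of the GA-binding transcription factor, stood at 4.94 and 5.32 in the CON libraries, against 4.89 and 5.38 FPKM in KD and was not called (limma adjusted p = 0.979).

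The most abundant antisense genes went both ways. MIF-AS1, opposite to the gene of the cytokine MIF, was at 36.3 and 42.3 in the CON libraries, against 30.2 and 30.1 FPKM in KD (log2 change -0.37, limma adjusted p = 0.0121), a call lost without KD replicate 3, and MIF went from 433 to 372 FPKM. Exons of this pair overlap by 687 bases and MIF is far more abundant, so the lower value is uncertain. THAP9-AS1 rose from 16.2 and 15.8 to 21.3 and 21.4 FPKM in KD (log2 change 0.39, limma adjusted p = 0.00106), along with THAP9, a transposase-derived gene, which rose from 1.73 to 3.06 FPKM. NAALADL2-AS2 fell from 17.7 and 16.3 to 12.7 and 13.3 FPKM in KD (log2 change -0.36, limma adjusted p = 0.00449), and NAALADL2 was too low to be tested. PINK1-AS, at 1.96 and 2.27 against 2.06 and 1.77 FPKM, overlapped between groups, while PINK1, the mitophagy kinase gene, fell from 10.2 to 7.12 FPKM.

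**Figure D4:**
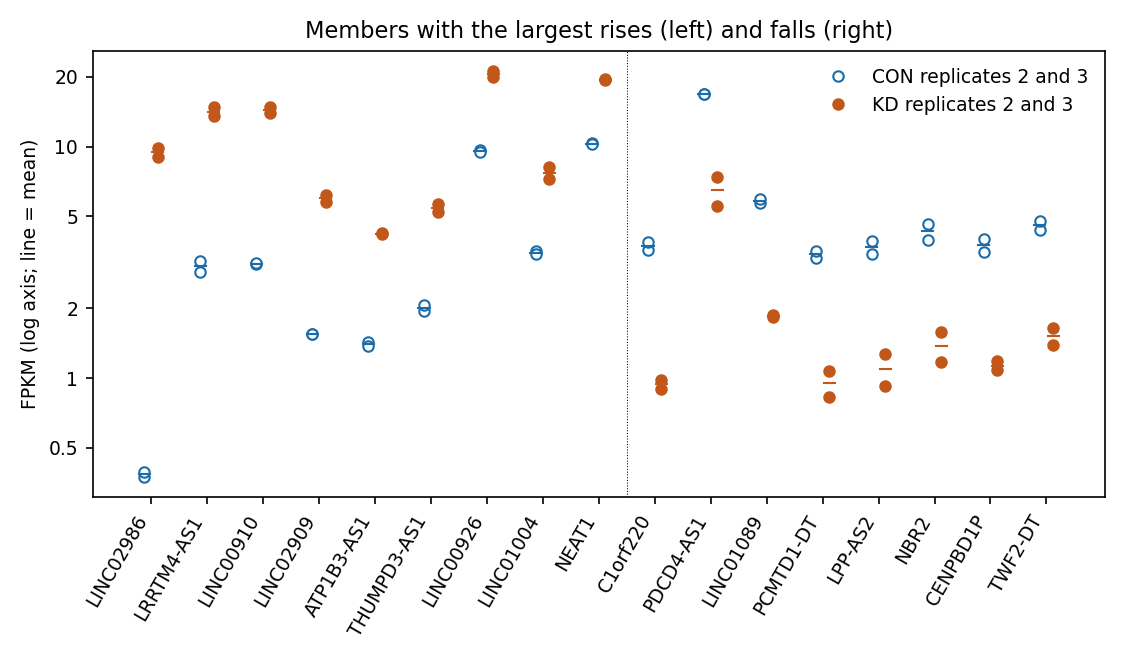
FPKM (log axis) of CON replicates 2 and 3 (open) and KD replicates 2 and 3 (filled), with a line at each mean, for the named lncRNAs with the largest rises (left of the dotted line) and falls (right). In each gene shown, both KD values are on the same side of both CON values, from 0.374 and 0.395 against 9.90 and 9.04 FPKM in LINC02986 to 4.37 and 4.79 against 1.39 and 1.64 FPKM in TWF2-DT. For LINC02986 and C1orf220 the filter on low values required this. The other genes were picked for the size of their change in these same libraries, so their separation is no support. Groups did not overlap in 81.6% of all tested genes.

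Divergent transcripts mostly fell, while the genes beside them were called in shares near those of coding genes at large. All 28 had a tested partner, the coding gene of their name: 19 of the transcripts fell and 1 rose, whereas 7 partners fell, 10 rose and 11 were not called. Among protein-coding genes of at least 2 FPKM 31.2% fell and 31.1% rose, so these counts do not set the partners apart. Both fell in 5 pairs, and in 6 pairs the transcript fell and the partner rose. The median distance between the start sites of a pair was 201 bases. Promoter windows of 4 head-to-head pairs, each shown for a different combination of changes, are given from RefSeq (GRCh38.p14), 5′ to 3′ on the strand of the lncRNA, from 250 bases before to 49 bases after its first base. Capitals mark the stretch from the RefSeq start of the coding gene, which runs to the left, to the RefSeq start of the lncRNA, which runs to the right. The windows are chr3:52238988-52239287 on the plus strand for TWF2-DT, chr5:181260962-181261261 on the plus strand for TRIM52-AS1, chr5:36876645-36876944 on the minus strand for NIPBL-DT and chr7:155297609-155297908 on the minus strand for INSIG1-DT.
TWF2-DT: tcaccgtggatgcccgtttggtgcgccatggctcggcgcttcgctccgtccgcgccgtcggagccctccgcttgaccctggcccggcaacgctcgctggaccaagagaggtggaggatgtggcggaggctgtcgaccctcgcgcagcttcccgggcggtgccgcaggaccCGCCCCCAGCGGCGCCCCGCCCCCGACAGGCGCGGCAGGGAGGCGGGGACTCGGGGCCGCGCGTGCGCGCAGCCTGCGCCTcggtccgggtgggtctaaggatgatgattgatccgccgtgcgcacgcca
TRIM52-AS1: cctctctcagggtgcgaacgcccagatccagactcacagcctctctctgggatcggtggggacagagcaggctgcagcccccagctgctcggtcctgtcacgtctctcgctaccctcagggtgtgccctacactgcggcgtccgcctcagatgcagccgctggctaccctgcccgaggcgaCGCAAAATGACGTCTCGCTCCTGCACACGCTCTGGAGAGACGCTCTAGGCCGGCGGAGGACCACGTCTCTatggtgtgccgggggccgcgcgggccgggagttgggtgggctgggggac
NIPBL-DT: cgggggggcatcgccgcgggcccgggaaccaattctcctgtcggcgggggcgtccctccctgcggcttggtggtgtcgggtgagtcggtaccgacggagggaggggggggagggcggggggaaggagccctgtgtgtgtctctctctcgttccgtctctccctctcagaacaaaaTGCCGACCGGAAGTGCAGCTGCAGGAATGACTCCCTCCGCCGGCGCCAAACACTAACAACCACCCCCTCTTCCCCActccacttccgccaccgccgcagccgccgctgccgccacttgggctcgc
INSIG1-DT: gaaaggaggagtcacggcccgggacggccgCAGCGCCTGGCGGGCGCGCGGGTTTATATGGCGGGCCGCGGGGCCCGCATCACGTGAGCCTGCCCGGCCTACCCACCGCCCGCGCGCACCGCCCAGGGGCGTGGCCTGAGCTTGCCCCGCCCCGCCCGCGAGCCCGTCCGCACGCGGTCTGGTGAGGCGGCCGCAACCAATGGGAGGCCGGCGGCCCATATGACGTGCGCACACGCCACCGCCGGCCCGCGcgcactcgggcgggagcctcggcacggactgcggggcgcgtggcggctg

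The starts within these windows are 80, 69, 75 and 220 bases apart, in the order shown, and the windows are rich in G and C (74.3%, 68.0%, 69.0% and 78.7%). In the first pair both genes fell. TWF2-DT was at 4.37 and 4.79 in the CON libraries, against 1.39 and 1.64 FPKM in KD (log2 change -1.15, SE 0.0891, limma adjusted p = 0.000703), and TWF2, which encodes the actin-binding protein twinfilin, was at 32.1 and 31.5 against 22.0 and 22.4 FPKM. Groups were apart in both genes, with a 3.02-fold lower mean of the lncRNA and a 1.43-fold lower mean of TWF2. The second pair has an antisense name but the same layout. TRIM52-AS1 fell from 3.14 and 2.86 to 1.42 and 1.43 FPKM in KD (log2 change -0.72, limma adjusted p = 0.00198), while TRIM52, of the tripartite motif family, had means of 4.30 and 3.95 FPKM and was not called (limma adjusted p = 0.2203). In the third pair the directions were opposite: NIPBL-DT fell from 4.58 and 4.46 to 1.86 and 1.74 FPKM in KD (log2 change -0.98, limma adjusted p = 0.000540), and NIPBL, the loader of cohesin, rose from 8.24 to 10.2 FPKM, a log2 change of 0.27 (limma adjusted p = 0.00664). In the fourth both rose, and INSIG1-DT was the only 1 of the 28 divergent transcripts to rise. INSIG1-DT was at 8.62 and 8.44 in the CON libraries, against 10.7 and 11.5 FPKM in KD (log2 change 0.34, limma adjusted p = 0.00481), and INSIG1, the sterol-regulated anchor of the SREBP pathway, was at 127 and 129 in the CON libraries, against 224 and 231 FPKM in KD. For the lncRNA INSIG1-DT the RefSeq and GENCODE starts lie 117 bases apart, against 0 to 20 bases for the other 3 lncRNAs. Coding gene starts can differ as well: TWF2 starts at 52239158 in RefSeq and at 52239260 in GENCODE. As GENCODE starts TWF2-DT at 52239258, the distance and the capitals given for that pair hold for RefSeq alone.

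Other divergent transcripts included falls beside a partner that rose or was not called. PAXIP1-DT, the most abundant to fall, was at 13.9 and 14.1 in the CON libraries, against 6.23 and 6.17 FPKM in KD, with no overlap. Its partner PAXIP1, a DNA damage response gene, rose from 4.90 to 5.98 FPKM. PCMTD1-DT on chromosome 8 fell from 3.31 and 3.54 to 1.07 and 0.833 FPKM in KD (log2 change -1.18, limma adjusted p = 0.000864) and PCMTD1, at 4.60 and 5.43 FPKM, was not called (limma adjusted p = 0.0787). EMSY-DT fell from 6.51 to 4.23 FPKM and EMSY rose from 2.76 to 3.83 FPKM. UBL7-DT, at 3.12 and 2.52 FPKM, was not called (limma adjusted p = 0.117), and UBL7 rose from 13.7 to 19.1 FPKM. PAXIP1-DT, EMSY-DT and UBL7-DT were chosen after their values were seen.

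Over all lncRNAs named after another gene, the changes of the members of a pair were weakly correlated. A partner name was found for 106 of the 197, and in 97 pairs both genes were tested. In these, 56 lncRNAs fell and 11 rose, while 27 partners fell, 35 rose and 35 were not called. The background for the partners is 31.2% lower and 31.1% higher, the shares of protein-coding genes of at least 2 FPKM. Both genes fell in 17 pairs and both rose in 6. The lncRNA fell and the partner rose in 17, the lncRNA rose and the partner fell in 2, LRRTM4-AS1 with LRRTM4 and VAMP1-AS1 with VAMP1, and the lncRNA fell beside a partner without a call in 22. The median log2 change was -0.39 for the lncRNAs and 0.01 for the partners, and across the 97 pairs, which share the same libraries, Pearson r was 0.105 and Spearman rho 0.150. In WNT5A-AS1 with the secreted ligand WNT5A, and in POU2F2-AS2 with the B cell transcription factor POU2F2, both genes fell by large amounts. WNT5A-AS1 went from 5.12 and 6.44 to 2.16 and 2.63 FPKM, and WNT5A from 5.46 and 5.24 to 2.63 and 2.96 FPKM. POU2F2-AS2 went from 5.28 and 6.26 to 2.29 and 2.20 FPKM, and POU2F2 from 17.1 and 17.0 to 9.89 and 8.92 FPKM. ZEB1-AS1 and the zinc finger gene ZEB1 went opposite ways, from 6.07 and 5.38 to 1.90 and 2.56 FPKM and from 6.32 and 6.32 to 8.71 and 7.85 FPKM. These 3 pairs were chosen after their values were seen.

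**Figure D5:**
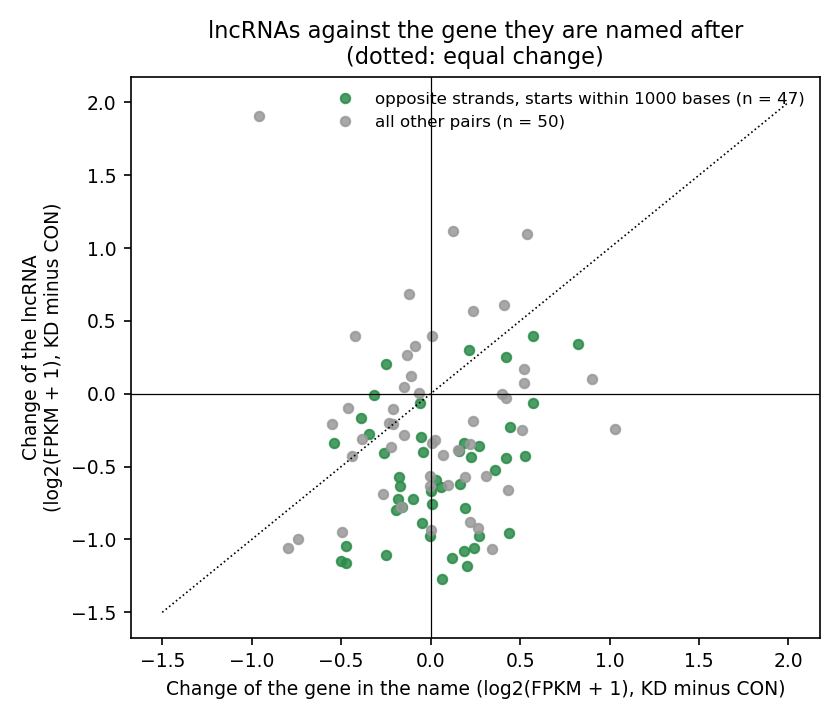
Change of each lncRNA against the change of the gene it is named after, both as KD minus CON on the log2(FPKM + 1) scale, for 97 pairs; green marks 47 pairs on opposite strands with starts within 1000 bases of each other. Most green points lie below 0 on the vertical axis and on both sides of 0 on the horizontal one, with medians of -0.59 and 0.03.

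Pairs were also divided by the distance between their start sites. Of 47 pairs on opposite strands with starts within 1000 bases, the lncRNA fell in 34 and rose in 2 (THAP9-AS1 and INSIG1-DT), with a median of -0.59, whereas their partners had a median of 0.03, with 13 lower and 17 higher. Of 45 pairs with starts farther apart, the lncRNA fell in 21 and rose in 8, with a median of -0.28, and 14 partners fell and 15 rose. The difference between both sets was not tested. Pearson r between the changes of a pair was 0.308 in the close set and -0.005 in the far set. Among antisense pairs placed on the genome, r was 0.250 in 47 whose exons overlap and -0.143 in 18 whose exons do not. For the nearest tested coding gene, whatever its name, 163 lncRNAs had a value. Of these neighbours 55 rose and 46 fell. Their median log2 change was 0.002, and r was 0.221. The background for neighbours and for partners is 31.1% higher and 31.2% lower, the shares of protein-coding genes of at least 2 FPKM. Both genes fell in 30 cases, and the lncRNA fell while its neighbour rose in 28.

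Of 9 lncRNAs listed for nuclear and chromatin roles 3 were tested, of which NEAT1 rose and 2 fell. NEAT1 was at 10.3 and 10.2 in the CON libraries, against 19.6 and 19.3 FPKM in KD, 1.90-fold higher with both groups tight and apart (log2 change 0.86, SE 0.0375, limma adjusted p = 0.000187). FPKM are per gene, so its short and long isoforms are not separated. MALAT1, its neighbour on chromosome 11, was at 13.7 and 13.2 in the CON libraries, against 12.1 and 11.9 FPKM in KD, a small fall (log2 change -0.15, limma adjusted p = 0.0325) that was lost in 9 of 14 alternatives, among them each of the 4 with a library left out. HOTAIRM1, transcribed from the HOXA cluster, was at 5.14 and 6.25 in the CON libraries, against 4.36 and 3.10 FPKM in KD; its groups did not overlap but each was wide (log2 change -0.51, SE 0.156, limma adjusted p = 0.0418), and the call was lost, among other settings, without either CON library or without KD replicate 3.

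Of 7 lncRNAs listed as cytoplasmic decoys, 5 were tested and all 5 fell, with 4 of them among the 197; of all tested genes 31.1% fell, and of the 197 lncRNAs 57.4%. So few genes do not set the list apart. NORAD was at 33.8 and 34.1 in the CON libraries, against 23.5 and 23.7 FPKM in KD, 1.44-fold lower without overlap (log2 change -0.51, SE 0.0304, limma adjusted p = 0.000380). DANCR, known for holding back cell differentiation, went from 10.6 and 10.8 to 6.83 and 7.60 FPKM in KD (log2 change -0.51, limma adjusted p = 0.00239). OIP5-AS1, a conserved RNA that binds microRNA-7, went from 8.97 and 9.06 to 6.55 and 6.77 FPKM in KD (log2 change -0.39, limma adjusted p = 0.00247). FGD5-AS1 showed the smallest change of the 4, from 12.5 and 13.7 to 10.9 and 11.2 FPKM in KD (log2 change -0.23), and lost its call in 4 of 14 alternatives, among them without CON replicate 3 or either KD library. The fifth, TUG1, which is not among the 197 because of its transcript types, fell from 19.1 to 13.0 FPKM. Of 7 lncRNAs linked to p53, 2 were tested and 0 are among the 197: TP53TG1 fell from 1.90 to 1.22 FPKM and LINC-PINT was not called.

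Genes of the remaining names with the largest falls had low levels in KD. C1orf220 had the largest fall of all 197, from 3.58 and 3.86 to 0.979 and 0.902 FPKM, 3.95-fold lower (log2 change -1.28, SE 0.0823, limma adjusted p = 0.000437). NBR2, described elsewhere as an RNA that binds the energy sensor AMPK, went from 3.97 and 4.66 to 1.17 and 1.58 FPKM, 3.13-fold lower (log2 change -1.16, SE 0.121, limma adjusted p = 0.00162). In NBR2 every KD value was below every CON value. C1orf220 passed the filter on low values through CON alone, so its groups had to be apart, and neither that nor its p-value is support.

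Genes of pseudogene names included the most abundant transcript and had the lowest share of falls of the types compared. GTF2IP4, a copy of the transcription factor gene GTF2I, was the most abundant of the 197, with 47.5 and 49.4 FPKM in CON and 59.98 and 62.8 FPKM in KD (log2 change 0.34, SE 0.0371, limma adjusted p = 0.00189). NCF1B, a copy of the NADPH oxidase subunit gene NCF1, was at 23.7 and 22.5 in the CON libraries, against 27.1 and 27.4 FPKM in KD (log2 change 0.23, limma adjusted p = 0.00689). EBLN3P, a remnant of an ancient bornavirus gene, overlapped between groups at 21.2 and 22.7 against 21.0 and 21.7 FPKM and was not called (limma adjusted p = 0.534). CENPBD1P was the largest fall of the class, from 3.52 and 3.98 to 1.08 and 1.19 FPKM in KD (log2 change -1.15, limma adjusted p = 0.000695), and ZNF271P fell from 2.38 and 2.35 to 1.67 and 1.69 FPKM in KD (log2 change -0.33, limma adjusted p = 0.0177), a call lost in each of the 4 alternatives with a library left out. Reads of such copies can also match the parent gene or other copies, so these levels are uncertain.

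Genes of proteins that bind or degrade lncRNAs were called in both directions. Those named here have the smallest adjusted p of their list, so most called genes of a list can go the other way. Of 24 genes of the nuclear exosome and its adaptors 12 fell and 5 rose (median -0.14); ZFC3H1, of the poly(A) tail exosome targeting connection, went from 18.1 to 9.002 FPKM and the core subunit EXOSC1 from 8.59 to 4.78 FPKM. Of 15 paraspeckle protein genes 7 fell and 2 rose (median -0.07). SFPQ, which binds NEAT1, rose from 36.1 to 75.5 FPKM and TAF15 fell from 23.1 to 14.9 FPKM. Of 14 Integrator subunits, which end transcription of many noncoding RNAs, 3 rose and 5 fell, INTS13 going from 27.7 to 43.2 FPKM and INTS8 from 10.5 to 16.3 FPKM. Of 14 genes of nonsense-mediated decay 4 rose and 5 fell, RBM8A going from 24.6 to 14.1 FPKM and EIF4A3 from 16.9 to 26.2 FPKM. Of 9 proteins known to bind XIST 0 rose and 3 fell, CIZ1 (27.2 to 20.4 FPKM), HNRNPU (19.0 to 14.7 FPKM) and YY1 (21.9 to 18.0 FPKM). The background for these counts is again 27.6% of tested genes higher and 31.1% lower, and what part these proteins have in the lncRNA levels was not tested.

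Promoter windows were searched on both strands for short motifs of common promoter-binding factors. RefSeq gives a window of 300 bases for 114 of the 197, of which 14 rose and 76 fell, and 34796 such windows in all. The AP-1 motif TGANTCA was in 7.73% of all windows, in 2 of the 14 and in 4 of the 76. The heat shock motif GAANNTTC was in 6.79% of all windows, in 2 of the 14 and in 2 of the 76. The core of the cAMP response element, TGACG, was in 24.5% of all windows, in 6 of the 14 and in 24 of the 76, and the CCAAT box in 34.6%, in 8 of the 14 and in 31 of the 76. No motif contains another, and a match in these letters is a description, not a bound site. The window of LINC00910, the strongest riser with a RefSeq window on a chromosome other than 8 and a LINC name, is shown because it holds the TGACG core 2 times close together, on opposite strands (capitals; chr17:43388849-43389148, minus strand). Its RefSeq start lies 301 bases downstream of the GENCODE start at 43389199. By GENCODE the whole window, with both matches, thus lies inside the gene and not before it. The window was chosen for these matches, and what part they have in the rise was not tested.
LINC00910: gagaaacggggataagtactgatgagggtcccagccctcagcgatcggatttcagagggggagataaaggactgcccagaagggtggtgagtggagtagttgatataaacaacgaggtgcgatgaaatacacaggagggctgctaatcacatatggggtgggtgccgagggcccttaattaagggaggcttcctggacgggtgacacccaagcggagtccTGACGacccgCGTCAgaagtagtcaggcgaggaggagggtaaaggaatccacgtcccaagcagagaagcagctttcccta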

How the data were processed

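Poly(A) RNA-seq of 3 CON and 3 KD samples was used as the table the authors deposited, which gives FPKM per gene and sample, per the file headers. Tools named in the submitters' processing notes are StringTie, HISAT2, fastp and edgeR, with the build GRCh38 and no versions. For the annotation release and the strand setting, neither is given in the sources used here. As each FPKM is relative to the library total, higher values of a few abundant genes make all others lower. FPKM are not counts and no count model was fitted. Whole reads could not be recovered from low values (the commonest ratio between libraries was shared by at most 36 of 4343 genes), so depth is unknown.

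The 11916 genes that reached 1 FPKM in 2 or more of 4 libraries were fitted as log2(FPKM + 1) with limma 3.58.1 (R 4.3.3), with a mean-variance trend and group as the only term, two-sided, and p-values were adjusted by Benjamini-Hochberg at 0.05. A change on this scale understates that of low genes. Residual and prior degrees of freedom were 2 and 2.85. An exact permutation test of 2 against 2 libraries cannot give a p below 0.333. Positions and exons come from GENCODE release 29 (163 of 197 matched by identifier), promoters from RefSeq; tables were handled with pandas 2.3.3 (Python 3.11.15). The lncRNAs and gene lists were chosen with earlier results of these data known. Genes named by rule were the largest rises and falls and the most abundant of each type of name. They also include all members of the lists, those at the threshold, and partner genes. TRIM52-AS1, NIPBL-DT and INSIG1-DT are outside that rule and were chosen for the changes of their pairs. Some others, such as LINC01754 and VAMP1-AS1, are named only as parts of a count. Alternatives were 2 other pseudocounts, other filters and scalings, no trend, a replicate block, all 6 columns, other membership thresholds and leaving out each library. The table's replicate numbers pair no samples by label, and deviations of same-numbered libraries had a correlation of 0.00473.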

Additional observations from a re-analysis of the deposited data

How the results depend on the processing

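Among the named lncRNAs more genes fell than rose under each alternative run. Their counts moved by over 1.5 times where fewer or more genes were counted: with tests limited to genes of a mean of at least 5 FPKM 13 rose and 31 fell (12 antisense, 12 LINC and 20 other names called), with membership from 5 FPKM 13 rose and 31 fell, and with membership from 1 FPKM 219 fell and 38 rose. The counts with membership from 1 FPKM include genes, such as LINC02924, that passed the filter on low values through a single group. With no filter on low values 20 rose and 79 fell. Leaving out each library in turn gave 22 to 26 rises and 89 to 110 falls. With the replicate number as a block 27 rose and 114 fell, and over all genes 3068 rose and 3514 fell. Over all genes scaling changed the balance: median-ratio scaling gave 3499 rises and 3474 falls, and there were 3758 and 3208 when rescaled without mitochondrial (MT-) genes, where the median of all genes was 0.03. The named lncRNAs then had 28 and 111, or 30 and 109. Of the 140 calls 99 were kept with no filter, 111 to 125 with a library left out, and 136 to 140 under the remaining settings that tested all of them; none turned into an opposite call. The setting with all 6 columns kept 137 but is no separate check, as its replicate 1 columns repeat replicates 2 and 3. Its larger divisor in KD also moved the median of all tested genes to -0.0553, from -0.022. Among the genes named by rule, EBLN3P, not called, changed sign to 0.018 when rescaled without MT- genes and to 0.011 without CON replicate 3. Its range over the libraries left out was -0.084 to 0.011. Calls of MALAT1, HOTAIRM1, ZNF271P, FGD5-AS1, MIF-AS1 and NCF1B were lost in 1 or more settings; the cause was not tested. With 2 libraries per group and unknown depth, small changes of low genes could not be resolved, the median SE of genes without a call being 0.0982.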

Other observations

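Of 264 named lncRNAs tested below the 2 FPKM threshold, 143 fell and 24 rose, counts that include genes made to differ by the filter. MED28-DT was at 0.138 and 0.147 in the CON libraries, against 2.46 and 2.35 FPKM in KD (log2 change 1.57, limma adjusted p = 0.000416), the largest rise there. It is a divergent transcript and the KD libraries were both far above the CON libraries. LINC02924 was at 2.80 and 2.33 in the CON libraries, against 0 and 0.233 FPKM in KD (log2 change -1.68, limma adjusted p = 0.00105), the largest fall there, and COA6-AS1 was at 1.16 and 1.53 FPKM in CON and listed at 0 in both KD libraries. These genes passed the filter on low values through a single group, so that they had to differ.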
